A study of Homo sapiens with 6 samples.

Results

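The rows described here are the exon region and exon junction rows of a human expression array that carry no gene symbol in the array's annotation. They number 205133 of the 925032 rows in the deposited table. Row names beginning PSR stand for a stretch of exon, and 166508 of the rows without a symbol are of that kind; the other 38625 begin JUC and stand for a junction between exons. A row was taken when its name began with PSR or JUC and its symbol was empty, except for 2 rows, PSR12027822 and PSR12027823. No measured value entered the choice by name and symbol, but the rule with its 2 exceptions was made with earlier results of these data known. A row without a symbol is unnamed here, which does not say that it lies outside a gene.

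The array was hybridised with RNA from BT549, an established cell line from a human triple-negative breast cancer with mesenchymal features. All 6 cultures carried the inducible construct pTripZ-200c, which makes the microRNA miR-200c when doxycycline is added. In 3 cultures, labelled Ctrl A, Ctrl B and Ctrl C, no doxycycline was given for 48 h; the 3 cultures labelled miR-200c A, miR-200c B and miR-200c C had 1 µg/mL doxycycline for 48 h. All grew attached in RPMI with serum. Cultures without the construct were not analysed here, so effects of the drug and of the microRNA cannot be told apart. The series describes the cultures as biological triplicates plated in triplicate, and p-values measure the spread between them.

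A spliced transcript is read on such an array by many short probe sets, some inside exons and some across the joints between them. When the RNA of a gene becomes more or less abundant, its exon regions and its junctions tend to move together, while alternative splicing moves some of them and leaves others. MicroRNAs pair through their seed with sites in messenger RNAs and lower the level or translation of those RNAs. The miR-200 family is known to repress the ZEB transcription factors, and through them to hold cells in the epithelial state. The mature strand of the microRNA that the construct encodes is shown because it is the treatment compared here, with its seed (bases 2 to 8) in capitals, from RefSeq (GRCh38.p14, chr12:6963742-6963764, plus strand).
hsa-miR-200c-3p: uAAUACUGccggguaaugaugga

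The labels were checked on rows that do have a symbol. The MIR200C row mean rose from 4.96 ± 0.26 to 9.53 ± 0.02 on the log2 scale (mean ± SD, n = 3 per group, as throughout), and ZEB1 fell from 7.49 ± 0.04 to 6.72 ± 0.02. Of the markers of the line, VIM, FN1, CDH2 and SPARC lay between 8.97 and 10.46 in untreated cells. The hormone receptors ESR1 and PGR, the leukocyte genes PTPRC and CD3E and the endothelial genes PECAM1 and CDH5 lay between 4.26 and 4.90, inside the range of the array's 23 background rows (4.10 to 6.36). Median log2 intensity over all rows ran from 5.18 to 5.21 over the 6 arrays.

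Rows without a symbol were mostly dim. Their median level was 4.64 on the log2 scale, against 5.55 for the 672085 rows with exactly 1 symbol. Of the rows without a symbol 83.1% had a mean at or under the highest background row, against 58.9% of the rows with 1 symbol. At the bright end, 4.66% of the rows without a symbol and 12.8% of those with 1 lay above a level of 10. A bright minority therefore remained, of 34599 rows above the background range. Exon regions and junctions without a symbol were about equally dim, with medians of 4.65 and 4.59.

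**Figure D1:**
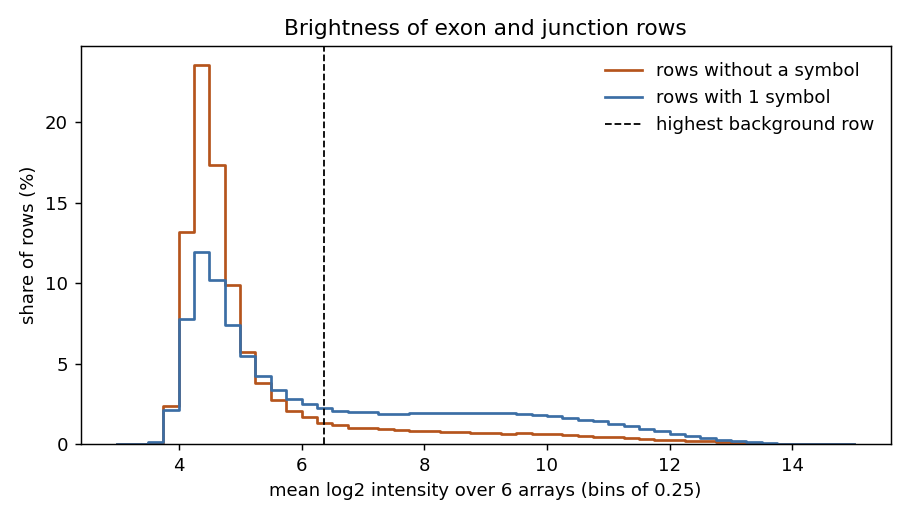
Share of rows (%, vertical axis) by mean log2 intensity over the 6 arrays (horizontal axis, bins of 0.25), for rows without a symbol and rows with 1 symbol; the dashed line is the highest background row at 6.36. Both curves peak inside the background range, and 83.1% of the rows without a symbol against 58.9% of those with 1 lie at or left of the line.

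The share of rows without a symbol that stood above the highest background row of their own array was 17.2%, 17.1% and 17.6% in the untreated cultures and 16.9%, 17.9% and 17.7% in those with doxycycline. The groups overlapped, and their means differed by 0.205 percentage points (exact two-sided permutation p = 0.6, where 0.1 is the smallest that 3 against 3 arrays can give). The median level over all rows without a symbol lay between 4.61 and 4.68 on the 6 arrays (difference -0.02, exact permutation p = 0.5).

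The 4 brightest rows, PSR07030031, PSR02011552, PSR09001666 and PSR04015122, held the same 6 values. Those values were 14.61, 14.49 and 14.52 in untreated cells and 14.67, 14.52 and 14.51 with doxycycline, and the change was 0.03 (SE 0.08, adjusted p = 0.95). Shared values were common: 13388 rows without a symbol had the same 6 values as at least 1 other row, so such rows are one measurement under several names. For 4749 of them the twin carried a symbol, and 1252 symbols were involved.

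The names of rows hold a chromosome code and a running number. Among 589328 rows with 1 symbol that RefSeq places, the code gave RefSeq's chromosome for 99.9%. Of neighbouring numbers that both had 1 symbol, 96.9% had the same one, and 98.8% of consecutive genes had rising start positions. Running numbers thus mostly follow the chromosome from one gene to the next where symbols exist. Of the rows without a symbol, 95814 had numbers among those of named rows and 103435 had numbers after the last named row of their chromosome code, where no named neighbour exists. A further 2236 were named after alternate contigs, and 3648 carried a name with the letters ASC. The share at or under the background range was 83.0% among symbols, 82.9% after the last symbol, 77.3% on contigs and 95.7% for the ASC rows.

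By chromosome code, the median level of rows without a symbol was highest for the mitochondrial code. All 35 rows of that code lacked a symbol, so transcripts of the mitochondrial genome, which encodes subunits of the respiratory chain, were read on this array only by unnamed rows. Their levels ran from 6.44 to 14.34 with a median of 13.6, and 21 of the 35 lay above 13. Their mean was 12.66, 12.59 and 12.64 in the untreated cultures and 12.54, 12.52 and 12.40 with doxycycline (difference -0.15, exact two-sided permutation p = 0.1, the smallest that 3 against 3 allows). The change was negative in 29 of the 35 rows, beside 57.8% of all rows without a symbol and 52.3% of all tested rows. It ran from -0.67 to -0.02 in the 12 rows under a level of 12 and from -0.14 to 0.09 in the 21 above 13. Of the 35 rows 0 passed the threshold in limma (smallest adjusted p = 0.22, with 7 rows at an unadjusted p under 0.05).

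With doxycycline 293 rows without a symbol were higher and 187 lower, at an adjusted p under 0.05 from limma fitted over all 924687 tested rows. That is 0.143% higher and 0.0912% lower, beside 0.451% and 0.277% of all tested rows. Rows with 1 symbol were called in 0.558% and 0.338% of cases. The median change over all rows without a symbol was -0.02, and over all tested rows -0.01. The rises had a median of 0.90 and ran up to 3.88, and the falls had a median of -0.86 and ran down to -2.72. A change of at least 1 on the log2 scale, which is a doubling or a halving, was seen in 116 of the rises and 64 of the falls. In 62 rises and 18 falls the dimmer group lay inside the background range and the brighter above it; in 196 rises and 153 falls both groups were above it, and in 35 rises and 16 falls both were inside it.

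These counts rest on all 6 arrays: leaving out any single array reduced the 293 rises to between 59 and 123 and the 187 falls to between 25 and 71. With 2 arrays in a group fewer calls can be made. The 16 rows named below kept their direction each time, but that was fixed beforehand, since they were chosen with groups apart.

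The share of rows called moved with their brightness. Of rows without a symbol under a level of 5, 0.00587% were called, and the share was 1.26% between the top of the background range and 8, 1.61% between 8 and 10 and 0.450% above 10. Rows with 1 symbol gave 0.0403%, 2.02%, 2.30% and 1.02% in the same classes. Above the background range as a whole, 1.15% of the rows without a symbol and 1.81% of those with 1 were called. Between the top of the background range and 8, 121 rows without a symbol rose and 48 fell, beside 1201 and 567 of those with 1. Above 10, 9 rose and 34 fell, beside 388 and 483. The difference in split was not tested. Rows were counted one by one, although nearby rows may read the same transcript. Several of the falls above 10 lay in 1 block on the X code, PSR0X018971 to PSR0X019007.

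**Figure D2:**
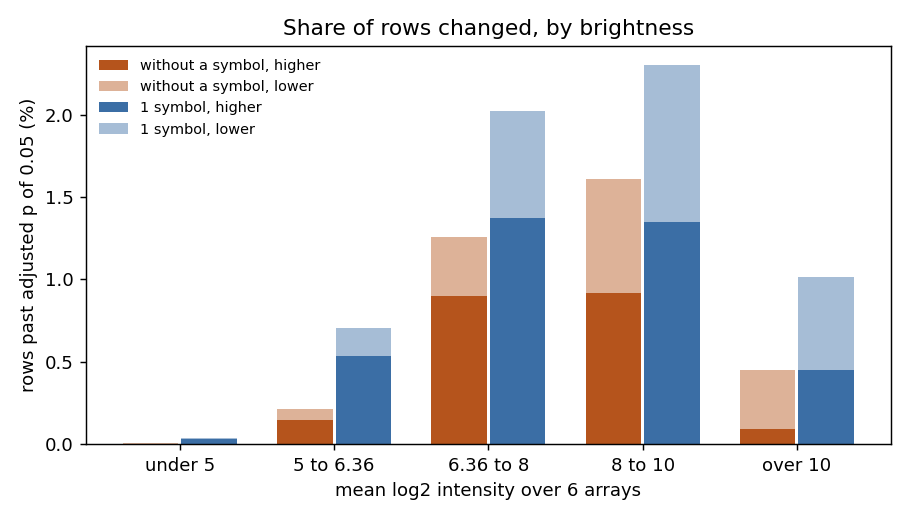
Rows past an adjusted p of 0.05 as a share of all rows in a class (%, vertical axis), by mean log2 intensity (horizontal axis), stacked by direction, for rows without a symbol and with 1 symbol. In each class the bar for rows without a symbol is shorter, with 1.61% against 2.30% between 8 and 10 as the tallest pair.

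The largest rises were in a stretch of 5 exon regions with consecutive numbers on the code of chromosome 12, PSR12027817 to PSR12027821. The next numbers are those of the 2 rows left out by the rule, so the stretch was cut there. PSR12027818 was 4.98, 4.71 and 4.76 in untreated cells and 8.79, 8.60 and 8.70 with doxycycline. Since the untreated level lay inside the background range, the rise was at least 5.05-fold against the highest background row, and the measured change was 3.88 (SE 0.10, adjusted p = 0.00036). PSR12027817 went from 7.83, 7.56 and 7.69 to 11.40, 11.36 and 11.38, a change of 3.69 (SE 0.09, adjusted p = 0.00036), with both groups above background. The changes of PSR12027819 and PSR12027821 were 3.01 and 2.93. PSR12027820, inside the same stretch, was already bright at 12.60 and reached 12.66 (change 0.05, adjusted p = 0.93), so that 4 of the 5 rows rose. The mean of the stretch went from 7.73 ± 0.09 to 10.44 ± 0.15, the largest change of any stretch. The 13 unnamed rows from PSR12027800 to PSR12027814 before it had levels of 12.36 to 14.00 and changes of -0.11 to 0.02, and 0 of them was called. The row naming MIR200C has number 1350 on the same code, 26467 numbers away. Since order was checked only between successive genes, that number gives no distance along the chromosome.

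On the code of chromosome 6, 4 consecutive exon regions, PSR06036916 to PSR06036919, rose together by 1.13 to 2.82. PSR06036919 was 5.03, 4.96 and 5.16 in untreated cells and 7.86, 7.76 and 8.01 with doxycycline, at least 2.85-fold higher (change 2.82, SE 0.10, adjusted p = 0.00045). PSR06036917 was 4.74, 4.51 and 4.75 against 7.07, 7.15 and 7.11, at least 1.68-fold higher (change 2.44, SE 0.09). All 4 rows were inside the background range in untreated cells, and PSR06036916 (4.30 to 5.42) and PSR06036918 (4.78 to 6.08) were still inside it with doxycycline. The 25 unnamed rows just before them had a median change of -0.0008 and the 23 just after one of -0.01. Of these 48 neighbours 0 was called, and 46 were inside the background range in both groups.

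On the code of chromosome 11, PSR11033471 was 5.76, 5.91 and 5.53 in untreated cells and 8.04, 7.98 and 7.86 with doxycycline, at least 3.03-fold higher (change 2.23, SE 0.12, adjusted p = 0.0015). PSR11033474 was 4.82, 4.85 and 4.87 against 6.64, 6.96 and 6.97, at least 1.41-fold higher (change 2.01, SE 0.11). The untreated means of both were inside the background range. Of the 6 consecutive rows PSR11033470 to PSR11033475, 5 rose, and PSR11033473 changed by 0.63 (adjusted p = 0.16). Treated and untreated arrays did not overlap in any of these 6. The same held for all 293 rises and 187 falls among rows without a symbol, so it adds nothing to the calls. The share over all tested rows was not counted.

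Among junctions, JUC09007729 was 6.50, 5.85 and 6.41 in untreated cells and 8.27, 8.07 and 8.40 with doxycycline, at least 3.70-fold higher, since the untreated mean was inside the background range (change 1.99, SE 0.18, adjusted p = 0.0092). JUC01013082 was 6.65, 6.46 and 7.54 against 8.77, 8.85 and 8.89 (change 1.95, SE 0.26, adjusted p = 0.034). The Ctrl C array was the highest of the untreated group for that junction, and its call was lost when any array but Ctrl C was left out (adjusted p from 0.073 to 0.15).

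The largest fall was of JUC07004641, a junction on the code of chromosome 7. It was 8.47, 8.74 and 8.57 in untreated cells and 5.75, 5.74 and 6.12 with doxycycline, inside the background range, and so was at least 4.70-fold lower (change -2.72, SE 0.13, adjusted p = 0.0012). From the same set of rows came JUC07004651 at 9.26, 9.99 and 9.72 against 7.68, 7.74 and 7.72 (change -1.94, SE 0.18), JUC07004650 (change -1.92, SE 0.16) and the exon region PSR07010046 at 8.09, 8.42 and 8.48 against 6.50, 6.37 and 6.66 (change -1.82, SE 0.13). The call for JUC07004651 was lost without Ctrl C or without miR-200c B (adjusted p = 0.054 and 0.058).

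On the code of chromosome 5, the adjoining rows PSR05032433 and PSR05032434 fell. PSR05032433 was 8.50, 8.22 and 8.71 in untreated cells and 6.33, 6.18 and 6.24 with doxycycline, at least 4.33-fold lower (change -2.23, SE 0.13, adjusted p = 0.0022). PSR05032434 was 7.29, 6.45 and 7.02 against 4.74, 4.77 and 4.99, at least 1.47-fold lower (change -2.08, SE 0.21, adjusted p = 0.012). The treated means of both were inside the background range. Of the 50 unnamed rows within 25 numbers of the pair 0 was called, and 44 were inside that range in both groups. PSR05032434 passed no more when Ctrl C or any treated array was left out (adjusted p from 0.051 to 0.078). PSR22017019 was 9.50, 9.61 and 9.60 against 7.97, 7.25 and 7.70 (change -1.93, SE 0.18, adjusted p = 0.0088; 0.055 without Ctrl C). JUC03006233, at 7.34, 6.08 and 7.25 against 4.86, 4.77 and 4.79, was at least 1.44-fold lower, with its treated mean inside the background range, and stood at the edge of the threshold (change -2.08, SE 0.32, adjusted p = 0.0497), with Ctrl B low among the untreated arrays. Without Ctrl A, Ctrl C or any treated array its adjusted p was from 0.13 to 0.19.

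**Figure D3:**
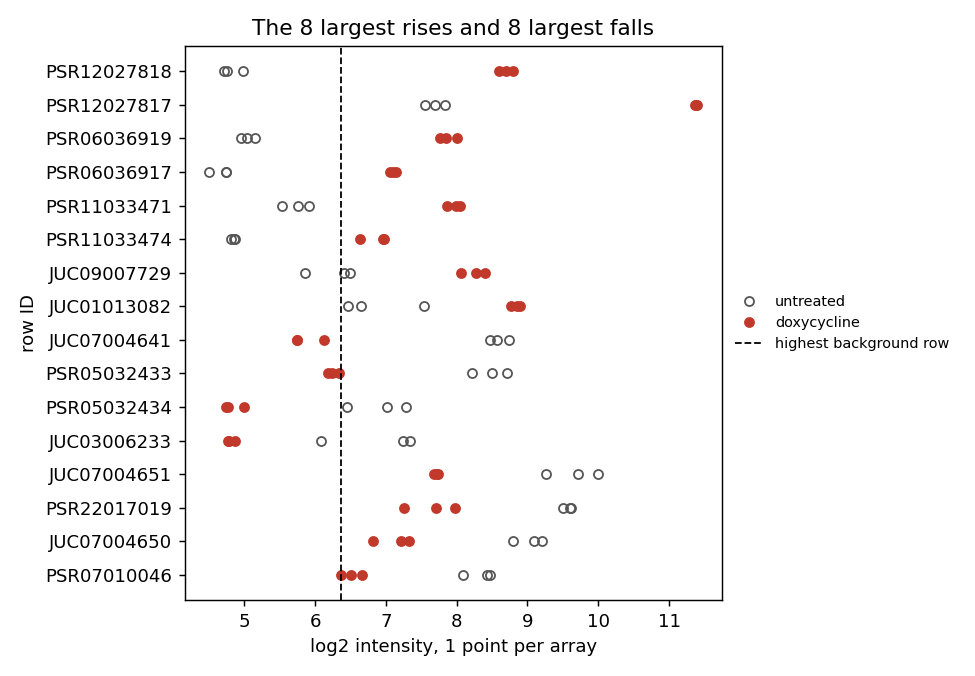
Log2 intensity (horizontal axis) of the 8 named rises and 8 named falls, the largest with at most 2 from a stretch. Each array is 1 point, open for untreated and filled for doxycycline. The dashed line is the highest background row at 6.36. In every row the groups are apart, and 5 of the 8 rises start left of the line in all 3 untreated arrays.

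Changed rows lay near each other by number. Of 213 pairs of successive changed rows without a symbol that were at most 10 numbers apart, 213 had the same direction, as did 3663 of 3701 such pairs of rows with 1 symbol. Grouped in this way, the 469 changed rows that have a chromosome code formed 256 groups. Of these, 179 were single rows and 15 held at least 5 changed rows, which together came to 129 rows. Neighbouring rows may read the same transcript, so these are not separate events.

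Under the stricter count of at least 3 rows with consecutive numbers that all passed in one direction, there were 17 rising runs with 63 rows and 8 falling runs with 26 rows. Of the 25 runs 24 were of exon regions and 1 of junctions. Runs depended on single arrays as the row counts did, with 2 to 7 rising and 0 to 3 falling when 1 array was left out.

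The longest run had 10 exon regions, PSR01024543 to PSR01024552, with rises of 0.54 to 1.54. Its first row, PSR01024543, was 6.25, 6.29 and 5.96 in untreated cells and 7.62, 7.62 and 7.88 with doxycycline (change 1.54, SE 0.12, adjusted p = 0.0055). The 5 rows of the same stretch just before the run changed by between -0.04 and 0.09, and all were inside the background range. In the 18 rows of that stretch, PSR01024538 to PSR01024555, 11 rose and 6 were inside the background range in both groups. Its mean went from 6.39 ± 0.04 to 7.08 ± 0.04 (change 0.69, SE 0.04, adjusted p = 3.3e-05).

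The second longest rising run was PSR05031740 to PSR05031744, with changes of 0.65 to 1.00. PSR05031740 was 7.78, 7.52 and 7.52 in untreated cells and 8.68, 8.45 and 8.69 with doxycycline, and all 5 rows were above background in both groups. The 25 rows before the run had a median change of -0.0005 and 0 calls, but 23 of them were inside the background range in both groups. In the 25 rows after it 23 changes were positive, with a median of 0.62, and 7 passed. The consecutive series holding the run has 155 rows, and its mean over all of them did not pass (change 0.11, SE 0.03, adjusted p = 0.076).

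Runs of 4 rows came next: PSR06036916 to PSR06036919, described above, PSR10023994 to PSR10023997, with changes of 1.00 to 1.34, and PSR04028391 to PSR04028394. In the last of these, PSR04028394 was 7.70, 8.01 and 7.46 against 9.83, 9.51 and 9.69 (change 1.95, SE 0.16, adjusted p = 0.0058). No unnamed row within 25 numbers of either of the last 2 runs was called, with median changes between -0.04 and -0.03. Of the 48 neighbours of each, 45 and 41 were inside the background range in both groups. The consecutive series that hold them had 246 and 44 rows, with mean changes of -0.004 (adjusted p = 0.97) and 0.18 (adjusted p = 0.011).

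The longest falling run was PSR10028005 to PSR10028009, with changes of -1.55 to -0.94. PSR10028006 was 9.34, 9.23 and 9.35 in untreated cells and 8.42, 8.20 and 8.34 with doxycycline (adjusted p = 0.0081), and PSR10028005 was 8.27, 8.30 and 7.85 against 6.76, 6.28 and 6.72. Both group means of all 5 rows were above background. Of the 10 rows PSR10028005 to PSR10028014, 8 fell, and the median change over the 10 was -0.998. The 25 rows before had a median change of 0.02 with 0 called, and all 25 were inside the background range. Averaged over the 325 consecutive rows that hold it, the block was not visible (change -0.05, adjusted p = 0.45).

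The largest group of nearby falls was on the code of chromosome 7, where 16 of 24 exon regions from PSR07010022 to PSR07010046 fell, with changes of -1.82 to -0.99. It held 3 runs of 3 rows each, and the junction run JUC07004641 to JUC07004643 lay between the same pair of named genes. On the X code, 12 of 34 exon regions from PSR0X018971 to PSR0X019007 fell, with changes of -1.03 to -0.54. These were bright rows, at 9.25 to 11.44 in untreated cells. The X code had the highest share of called rows of any code, 0.524%, with 5 rises and 27 falls among 6107 rows. Of X rows with 1 symbol 0.498% were called, and of all tested rows 0.728%. The code of chromosome 1 had the most called rows, 56 rises and 12 falls among 21104, and 40 of the rises lay in 4 groups of 14, 12, 8 and 6 nearby rows. The groups of 14 exon regions and 8 junctions lay between the same pair of named genes. Those of 12 exon regions and 6 junctions lay between another pair, so these are not 4 separate places.

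Exon regions and junctions are separate rows, numbered apart, that can read the same transcript. Between a pair of successive named genes both kinds occurred without a symbol in 3891 intervals. In 10 of these at least 1 exon region and at least 1 junction changed, and in 10 of the 10 every changed row of both kinds had the same direction. Only called rows entered that count, and no like count was made for named genes. In the interval on the code of chromosome 8, the 2 changed exon regions and 1 changed junction held the values of rows naming HEATR7A. That interval therefore repeats measurements of a named gene. Changed exon regions alone were seen in 22 intervals and changed junctions alone in 16. In the chromosome 7 interval 16 of 26 exon regions and 7 of 11 junctions fell. Among those of its rows above background, the median change was -1.45 for exon regions and -1.46 for junctions. The interval on the X code, PSR0X008601 to PSR0X008688, is not the X block described above. Its 3 called exon regions and 1 called junction fell. Its medians above background were -0.07 for exon regions and 0.25 for junctions. Both medians had the same sign in every other interval of the 10 with rows of both kinds above background.

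In 1 interval on the code of chromosome 1, from PSR01014059 to PSR01014103, 12 of 45 exon regions and 7 of 38 junctions rose, with median changes above background of 0.77 and 0.91. In another, from PSR01024524 to PSR01024631, 14 of 90 exon regions and 8 of 67 junctions rose, while the median changes above background were 0.13 and 0.17. The called rows of that interval included the 10-row run. On the code of chromosome 4, from PSR04019333 to PSR04019397, 6 of 51 exon regions and 2 of 32 junctions rose.

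**Figure D4:**
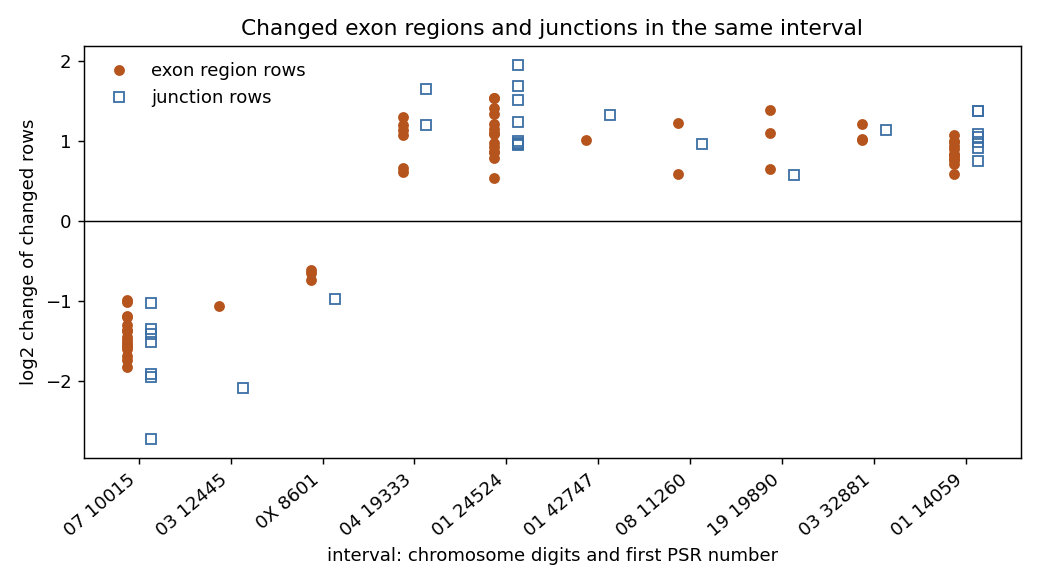
Log2 change (vertical axis) of each changed exon region (filled) and junction (open) in the 10 intervals between successive named genes where both kinds changed, labelled by chromosome code and first exon region number. Both kinds lie on the same side of 0 in all 10, with 3 intervals of falls and 7 of rises.

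A stretch was taken as every series of at least 3 exon regions without a symbol and with consecutive numbers, whatever their values, and its rows were averaged. There were 8327 such stretches, with a median of 6 rows and at most 674. They were tested in limma in 1 fit with the means of the 22085 named genes. Of the stretches 118 rose and 118 fell, which is 2.83% in all, beside 4.47% higher and 2.91% lower among all stretches and genes together and 9.09% of genes called. Both group means lay inside the background range in 86.1% of stretches and in 61.4% of genes.

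Most changes of stretches were small, and 140 of the changed stretches had a mean above the background range. The median rise was 0.27 and the median fall -0.24, and 11 rises and 8 falls reached 0.5. In 173 of the changed stretches no single row passed its own test and in 63 at least 1 did, and in 0 stretches did a changed row go against its stretch. The mean of a stretch includes its changed rows, so that agreement is partly built in. When the median of the rows was used in place of their mean, 44 rises and 23 falls were left, so many of these calls depended on how rows were averaged. Without miR-200c C the 118 rises became 78, and without Ctrl A, miR-200c B or miR-200c C the 118 falls became 51, 45 and 54.

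Of the rising stretches, PSR04019340 to PSR04019348 was 6.31, 6.22 and 6.31 in untreated cells and 7.10, 7.13 and 7.23 with doxycycline (change 0.87, at least 0.79 against the highest background row, SE 0.05, adjusted p = 2.8e-05). All 9 of its rows had a positive change and 4 passed alone. Its neighbour PSR04019333 to PSR04019337, in the same interval, was 5.78, 5.73 and 5.89 against 6.47, 6.55 and 6.63 (change 0.75, SE 0.06). Its untreated mean was inside the background range, so the rise was at least 0.19, and with the median of the rows it did not pass (adjusted p = 0.065). PSR17007198 to PSR17007200 was bright, at 8.69, 8.50 and 8.50 against 9.21, 9.27 and 9.30 (change 0.70, SE 0.06). PSR01014059 to PSR01014103 was 7.54, 7.33 and 7.56 against 8.10, 8.11 and 8.10 (change 0.63, SE 0.06), with 40 of 45 rows positive and 12 called. Its called rows ran from PSR01014074 onward.

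Of the falling stretches, PSR07010034 to PSR07010046 was 7.56, 7.80 and 7.80 in untreated cells and 6.68, 6.66 and 6.69 with doxycycline (change -1.04, SE 0.06, adjusted p = 5.5e-05). All 13 rows had a negative change, 8 passed, and 4 were inside the background range in both groups. PSR07010021 to PSR07010032, 1 missing number before it, was 7.53, 7.89 and 7.77 against 6.69, 6.68 and 6.72 (change -1.03, SE 0.08). Its 12 rows were all negative too and 8 passed. In both of these stretches the rows above background changed by at least 0.88, while those inside it in both groups changed by -0.42 to -0.01.

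A second set of falls lay on the code of chromosome 1. PSR01025259 to PSR01025261 was 8.47, 8.57 and 8.60 in untreated cells and 7.16, 7.36 and 8.01 with doxycycline (change -1.04, SE 0.18, adjusted p = 0.012). PSR01025186 to PSR01025201 was 8.16, 8.08 and 8.17 against 7.06, 6.96 and 7.64 (change -0.92, SE 0.15, adjusted p = 0.0088). PSR01025169 to PSR01025180 was 8.36, 8.20 and 8.40 against 7.49, 7.35 and 7.92 (change -0.74, SE 0.13, adjusted p = 0.012). PSR01025260 of the first stretch held the same 6 values as PSR01025200 of the second (change -1.14), so the first and second are not wholly separate measurements. In all 3 the miR-200c C culture stood nearest to the untreated ones, and without it the changes were -1.29, -1.13 and -0.90. The treated SDs of 0.44, 0.37 and 0.30 were above those of the untreated group, 0.07, 0.05 and 0.11. The first of the 3 lost its call without miR-200c B (adjusted p = 0.055), and the first and second lost it with the median of the rows (adjusted p = 0.094 and 0.077). PSR16013043 to PSR16013045 changed by -0.62 (SE 0.08, adjusted p = 0.0019), although 0 of its 3 rows passed alone. Its treated mean was inside the background range, so the fall was at least 0.25, and the call was lost with the median of the rows (adjusted p = 0.13).

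**Figure D5:**
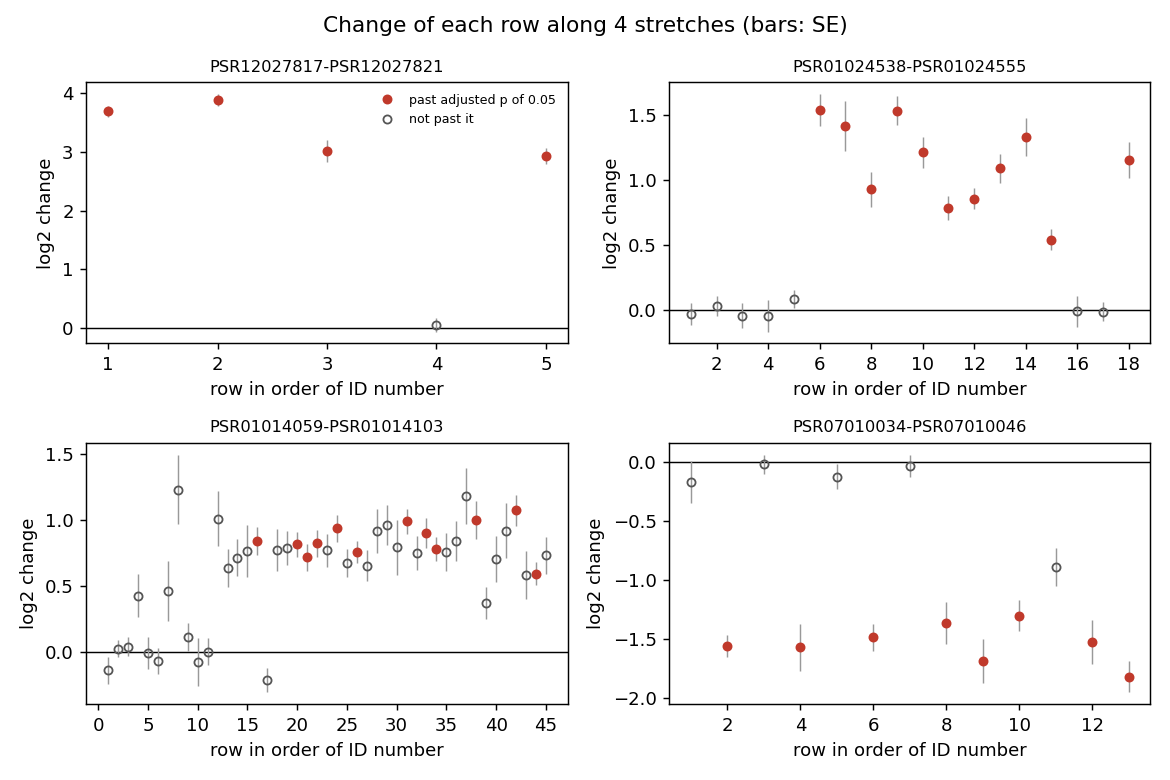
Log2 change with its SE (vertical axes) of each row, in order of ID number (horizontal axes), in 4 of the named stretches; filled points passed an adjusted p of 0.05. Passing rows number 4 of 5 in PSR12027817 to PSR12027821, 11 of 18 in PSR01024538 to PSR01024555, 12 of 45 in PSR01014059 to PSR01014103, where 40 rows are positive, and 8 of 13 in PSR07010034 to PSR07010046 (all negative).

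Genes on the nearest numbers before and after a changed stretch were called about as often as those beside any stretch. Of 208 gene neighbours of rising stretches 11 rose and 12 fell, of 209 neighbours of falling stretches 14 rose and 10 fell, and 9.88% of all 13583 neighbours of stretches were called. A neighbour gives no name to a stretch. In all, 8 stretches lay between rows of the same symbol, each with both group means inside the background range.

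A gene can be given for a changed row where its 6 values were those of a row naming 1 gene, which held for 13 of the 480. PSR14024776, with the values of a PGF row (placental growth factor, a ligand of the VEGF family), was 8.55, 8.29 and 8.42 in untreated cells and 9.47, 9.34 and 9.55 with doxycycline (change 1.04, SE 0.10, adjusted p = 0.0099). JUC05010350, with the values of an OCLN junction (occludin, a tight junction protein), was 9.70, 9.67 and 9.55 against 10.33, 10.16 and 10.37 (change 0.65, SE 0.09, adjusted p = 0.036). A pair of contig rows shared values with rows of DDR1, a collagen-binding receptor tyrosine kinase, and changed by 0.99 and 1.04. The other rises were of rows shared with HEATR7A (0.59, 0.96 and 1.22), AS3MT, an arsenic methyltransferase (0.65 and 0.67), TMEM191A (0.86) and SLC9A7P1 (0.61). The 2 falls were of rows shared with ATAT1, the alpha-tubulin acetyltransferase (-0.53), and DCLK2, a doublecortin-like kinase (-0.50). These 13 rows repeat measurements of named rows and are no second observation of those genes.

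Of the 11 changed rows on contigs 4 rose and 7 fell, and the 7 that fell were junctions with the same 6 values under 7 names. Counting every set of identical rows once, a choice made after seeing the data, left 291 rises and 175 falls. The 3648 ASC rows gave 0 calls in limma.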

How the data were processed

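The deposited values are log2 intensities, with 1 value for each row and array; the range of the values, from the table itself, gave the scale. Partek is named in the submitters' processing notes, without a version or the step it was used for. How background was corrected, how arrays were normalized and which genome build was used was not given in the sources used here. Per the labels' protocols, 1 µg of total RNA was labelled with a FlashTag biotin kit.

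Of 925032 rows 345 controls were left out and 924687 tested with limma 3.58.1 (lmFit and eBayes, R 4.3.3) on the values as deposited, group as the single term, with Benjamini-Hochberg adjustment over all tested rows and a threshold of 0.05. Stretches (at least 3 rows) were fitted with the gene means in the same way. Tables were handled in pandas 2.3.3 and data.table (1.17.8), exact tests run in scipy 1.17.1 and figures drawn in matplotlib 3.10.9. The fits were tested on simulated data.

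Named rows were the 8 largest rises and 8 largest falls past the threshold, and the 4 brightest rows. Rises and falls needed groups apart, the brighter mean above the highest background row and at most 2 from a stretch. Named stretches were the 6 largest rises and falls by the same conditions. Runs were planned as the 3 longest each way. Those named were the rising runs of at least 4 rows, the falling run of 5 and the junction run. The other falling runs, tied with the junction run at 3 rows, were not named one by one. Groups of nearby changed rows, the rows around runs and the rows sharing values were added after values were seen. Members, lists and rules were chosen with earlier results of these data known. Correlations of deviations between samples of the same replicate letter were -0.13, -0.07 and 0.19. These values alone cannot settle whether the letters pair the samples, and the main fit used no block. Probe sequences were not used here.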

Additional observations from a re-analysis of the deposited data

How the results depend on the processing

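With the replicate block, 35 rows rose and 21 fell in place of 293 and 187. Rising runs went from 17 to 1 and falling runs from 8 to 0. Whether the letters pair the samples was not settled, and the cause of this loss of calls was not tested. With 1 array left out the rises were 59 to 123 and the falls 25 to 71; stretches rose in 78 to 107 cases and fell in 45 to 105 in place of 118 each; runs rose in 2 to 7 and fell in 0 to 3. The cause beyond the smaller sample was not tested. Leaving out rows dim in both groups before the fit gave 416 rises, 291 falls, 25 rising runs and 17 falling runs, with fewer rows tested. A change of at least 1 left 116 rises and 64 falls, and runs of at least 5 rows left 2 rising and 1 falling. The median of the rows gave 44 rising and 23 falling stretches. Against the 95th percentile of the background rows, the share of rows above background differed by 0.970 points in place of 0.205 (exact permutation p = 0.4). Of the 480 calls, 455 were shared with quantile normalization, 373 with a trended and robust variance, 429 without dim rows and 53 with the replicate block. No named row or stretch changed direction under any of these. For fits with 1 array left out that was fixed beforehand, since named rows and stretches were chosen with groups apart. It was also fixed for the replicate block, the trended and robust variance and the fit without dim rows. These leave the size of each change as it was. In the fits with 1 array left out, 79 of 96 calls of named rows and 71 of 72 of named stretches held. Most rows without a symbol are within the background range, where a fold change is only a lower bound or has none.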
